A study of Danio rerio with 6 samples.

Results

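The proteasome is the protease of the cytosol and nucleus that breaks down proteins tagged with ubiquitin. Its barrel, the core particle, is built of rings of alpha subunits (psma genes) around rings of beta subunits (psmb genes), some of which carry the proteolytic sites. The regulatory particle caps the barrel: a ring of ATPases (psmc genes) unfolds the substrate, and non-ATPase subunits (psmd genes) of the base and the lid recognise ubiquitin and remove it. In mammals the subunit genes are switched on together by the transcription factor NFE2L1 when proteasome activity falls short.

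The genes described here are the rows of the deposited count table whose symbol begins with psm, a letter from a to g and a digit, without the interferon-inducible beta genes psmb8a, psmb9a, psmb12 and psmb13a. This rule gave 53 of 30954 named genes: 19 of the core particle, 20 of the regulatory particle and 14 others (activators, an inhibitor, assembly factors and interacting proteins). The rule also takes in psmc3ip, a meiotic recombination factor, and psme3ip1, a partner of psme3, by their names alone. Neither is a subunit, and both are counted among the 14 others. The filter on low counts was passed by 51 of the 53 genes, among 12889 genes tested in all.

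The libraries came from livers of scd knockout zebrafish (mutant, 3 libraries, made with CRISPR-Cas9) and of wild-type zebrafish (WT, 3 libraries), all kept at a water temperature of 28 °C. The gene scd encodes stearoyl-CoA desaturase. The labels state neither age nor sex, neither feeding state nor pooling, and not whether the knockout is 1 line or several, so p-values measure the spread between these libraries, which may be technical. Total counts lay between 22736900 and 26021700 per library.

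The libraries differed in more than genotype, which touches every value that follows. The targeted gene scd stood at 691, 110.3 and 56.6 CPM (counts scaled to a common library size) in mutant replicates 1 to 3, against 30.3, 18.1 and 429.9 CPM in WT replicates 1 to 3, so its level does not separate the groups. All 10 hepatocyte markers were detected in every library. They summed to 81061, 32809 and 38256 CPM in mutant replicates 1 to 3, against 58881, 59114 and 69767 CPM in WT replicates. The 19 exocrine pancreas markers summed to 670, 493 and 754 CPM in mutant replicates 1 to 3. WT replicates 1 to 3 had 196, 2777 and 2454 CPM of these. Mutant replicate 3 had 0.0433% of its counts in vitellogenin genes, against 57.3% in each of the other mutant libraries and 44.1% to 51.0% in the WT libraries. The 24 oocyte and gonad markers summed to 367, 1.52 and 0.740 CPM in mutant replicates 1 to 3, against 227, 267 and 3.37 CPM in WT replicates 1 to 3. The 12 erythrocyte markers reached 2426 CPM in mutant replicate 3, with at most 318 CPM in the other mutant libraries and 391.9 CPM in WT libraries. In RNA from whole tissue, fewer cells of a type and less RNA per cell cannot be told apart. Levels below are CPM with edgeR's TMM scaling (trimmed mean of M-values), whose factor was 2.95 in mutant replicate 3 and lay between 0.632 and 1.07 elsewhere.

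Most proteasome subunit genes had a higher mean level in mutant livers than in WT livers, by less than 2-fold in most cases. The differences were larger in the regulatory particle than in the core. For the core, the mean levels of the libraries overlapped between the groups. The median log2 fold change, mutant over WT, was 0.75 over the 20 regulatory members and 0.50 over the 17 core members that were tested, beside 0.04 over all genes tested. It was positive for 19 of 20 regulatory and 15 of 17 core members, where 51.9% of all genes had a positive value. Every mutant library lay above every WT library for 17 of 20 regulatory members and for 4 of 17 core members, against 15.1% of all genes. The opposite, every mutant library below every WT library, held for 0 of the 51 tested members and for 12.8% of all genes. These counts depend on the scaling. With CPM per total counts, every mutant library lay above every WT library for 6 of 20 regulatory and 5 of 17 core members. This scaling uses no TMM factors, and the share of all genes was 11.6%. The summed regulatory level was then 279, 521 and 1956 CPM in mutant replicates 1 to 3, against 304, 240 and 247 CPM in WT replicates. For the core it was 251, 367 and 1532 CPM, against 260, 236 and 266 CPM. Mutant replicate 1 thus lay within the WT range for both particles, and mutant replicate 3 stood far above all other libraries. Total counts include vitellogenin. Without it, mutant replicate 3 had 23774400 counts and the other libraries between 9756360 and 12590000. The medians with total counts were 1.82 over the regulatory and 1.62 over the core members, beside 0.97 over all genes, so the order of the particles was the same. With TMM and library sizes without vitellogenin and pancreas genes, they were 0.75 and 0.49, beside 0.03 over all genes. The difference between the particles is a description of these genes and was given no test. Mutant replicate 3, which stood apart in vitellogenin and erythrocyte markers, had the highest mean level of both particles, and the part of these markers in the result was not tested.

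**Figure D1:**
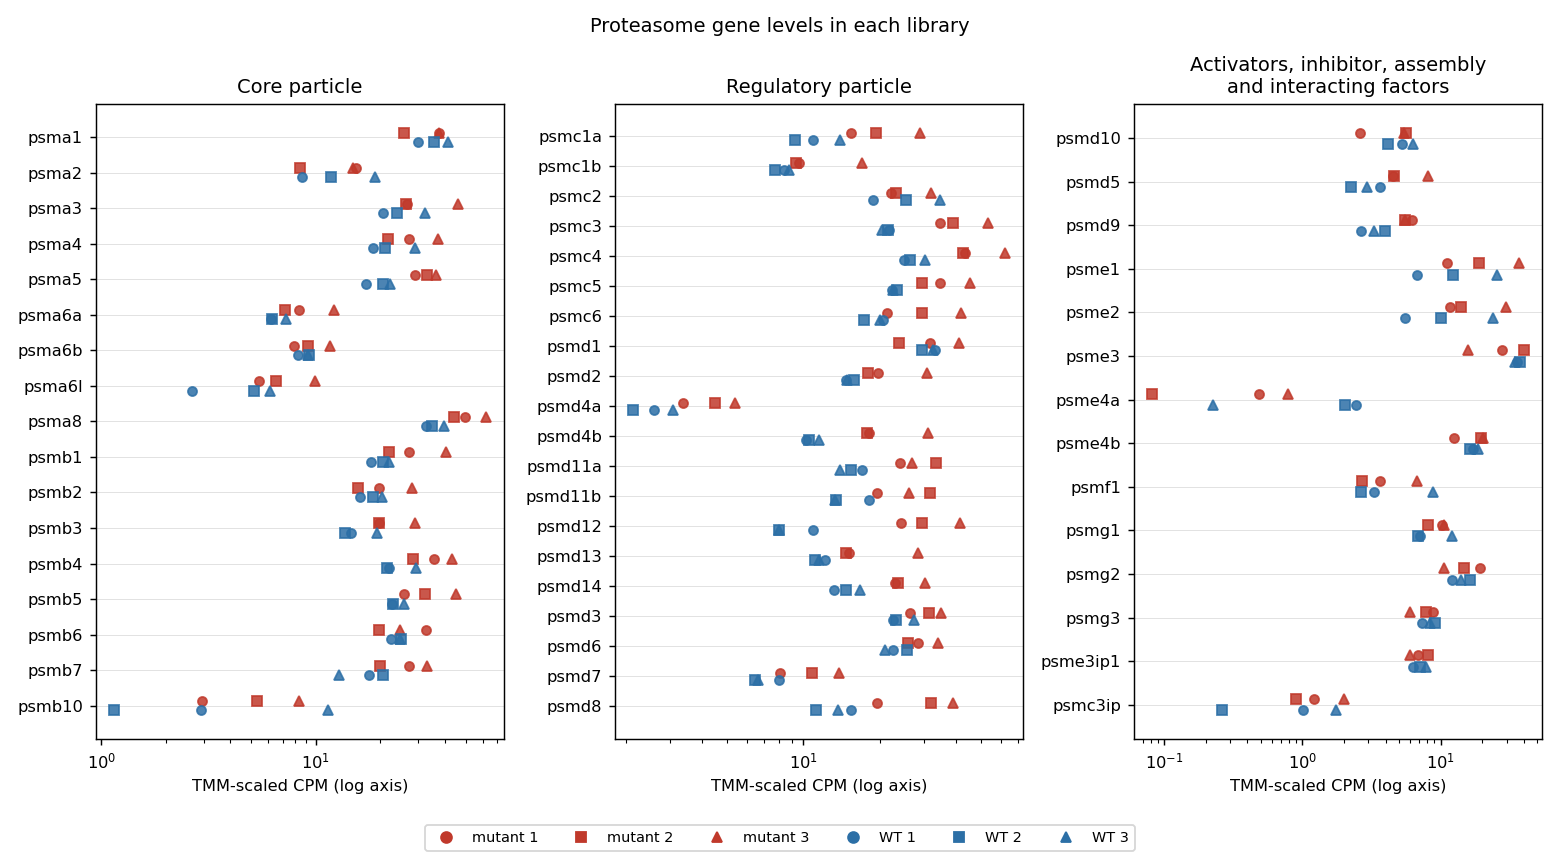
TMM-scaled CPM (log axis) of the 51 tested proteasome genes in each library, mutant libraries in red and WT libraries in blue, with a symbol for each replicate number. In the regulatory particle the red symbols lie to the right of the blue ones for 17 of 20 genes, and in the core particle for 4 of 17.

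No single member passed the threshold of an adjusted p under 0.05. The test was edgeR's quasi-likelihood test with Benjamini-Hochberg adjustment over all genes, which called 0.241% of them, and 0.116% as higher in mutant livers. At an unadjusted p under 0.05, 14 members were higher and 0 lower: 11 of the regulatory particle, 1 of the core and 2 assembly factors. Of all genes, 10.8% were higher and 8.29% lower at that threshold. The core count, 1 of 17, lay below the share of all genes. DESeq2's Wald test called 4 members higher, psmd12, psmc3, psmd8 and psmd4b, where it called 4.07% of all genes as higher. Limma-voom called 0 members, where it called 0.217% of all genes, and 0.0776% as higher.

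The difference was smaller without mutant replicate 3. In that fit, the median log2 fold change was 0.52 over the regulatory members and 0.23 over the core members, beside -0.03 over all genes. The remaining mutant libraries lay above every WT library for 16 of 20 regulatory and 2 of 17 core members, against 19% of all genes. At an unadjusted p under 0.05, 8 regulatory members and 1 core member were then higher, against 8.6% of all genes. Both core counts without mutant replicate 3 lay below the share of all genes. Without WT replicate 3, the count for the core was 11 of 17 and that for the regulatory particle 17 of 20, against 21% of all genes.

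**Figure D2:**
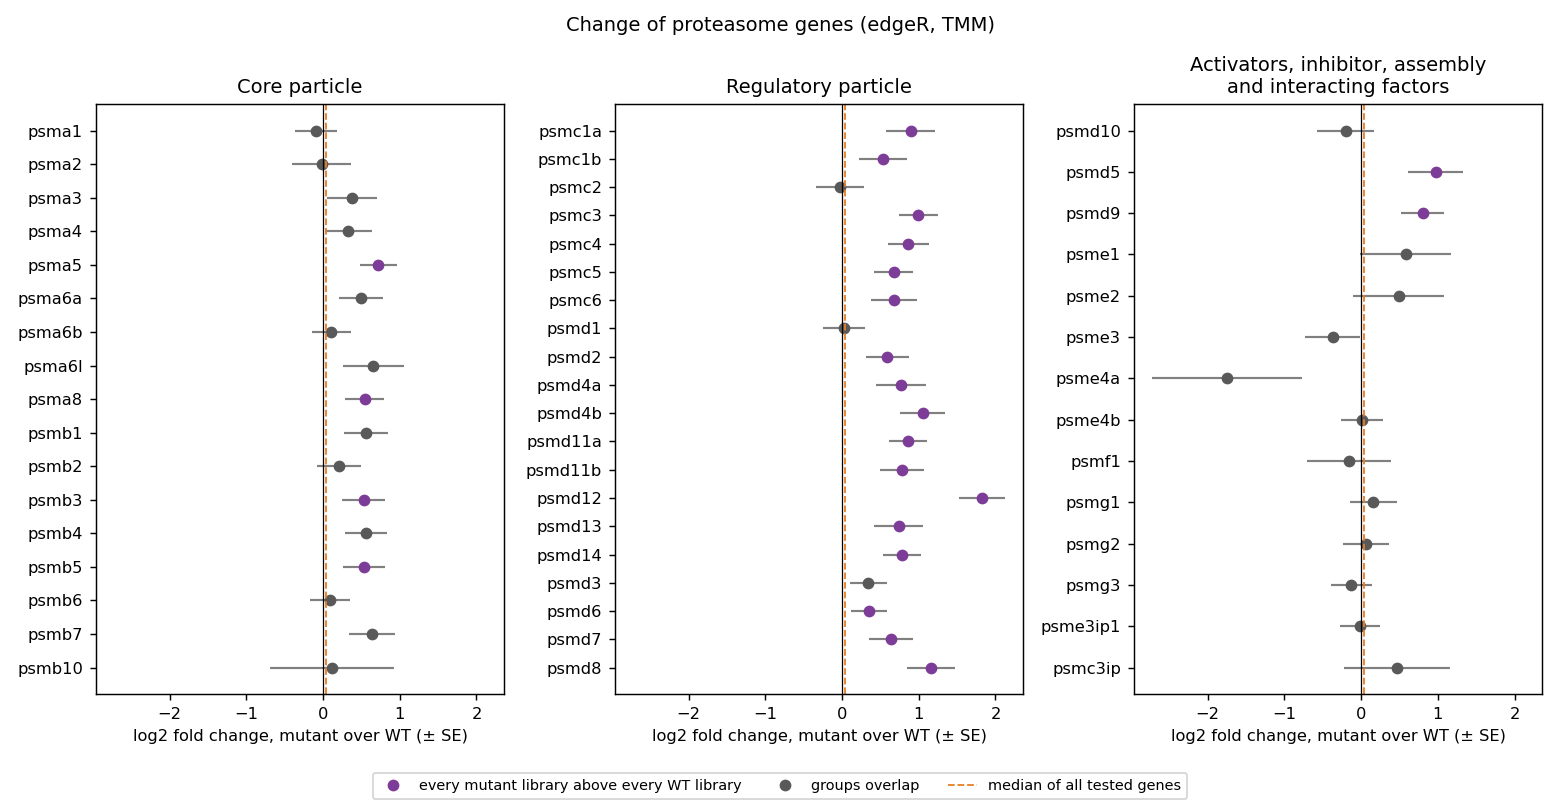
Log2 fold change, mutant over WT, with its standard error from edgeR for each tested member. Purple points mark genes whose every mutant library lay above every WT library, and the dashed line is the median of all tested genes at 0.04. The lid gene psmd12 lies farthest to the right at 1.82.

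Of the alpha ring, 9 genes were tested, with a median log2 fold change of 0.37 and values between -0.09 and 0.72. The gene psma5 was at 28.9, 33.0 and 36.5 CPM in mutant livers, against 17.1, 20.5 and 22.1 CPM in WT livers. All 3 mutant libraries were above the WT ones (log2 fold change 0.72 ± 0.24, SE; edgeR, adjusted p = 0.182). The gene psma8, of the alpha4 subunit, was at 49.6, 43.8 and 61.9 CPM in mutant livers, against 32.5, 34.9 and 39.4 CPM in WT livers. Its groups did not overlap either, and its log2 fold change was 0.54 ± 0.26 (edgeR, adjusted p = 0.304). The gene psma1 stood at 37.3, 25.8 and 37.5 CPM in mutant livers, against 30.0, 35.6 and 41.4 CPM in WT livers, with overlapping groups and a log2 fold change of -0.09 ± 0.27. The other negative value of the ring was that of psma2, at -0.02 ± 0.38. With total counts in place of TMM both turned positive, to 0.94 for psma1 and 1.04 for psma2. The median over all genes was 0.97 in that fit.

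The alpha ring gene psma6 has several copies in zebrafish. The copy psma6a was at 8.38, 7.15 and 12.1 CPM in mutant livers, against 6.18, 6.22 and 7.24 CPM in WT livers, where mutant replicate 2 fell within the WT range (log2 fold change 0.50 ± 0.29). Its partner psma6b was at 7.95, 9.16 and 11.7 CPM in mutant livers, against 8.29, 9.31 and 9.14 CPM in WT livers (0.11 ± 0.26). The third copy, psma6l, had a log2 fold change of 0.66 ± 0.40. How the authors' counting treated reads that fit more than 1 copy is stated in none of the sources, so the division of reads among copies is uncertain, here and for the copies named below. The remaining alpha genes psma3 and psma4 had values of 0.37 and 0.33 with overlapping groups.

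All 7 genes of the constitutive beta ring had positive log2 fold changes, between 0.09 and 0.64, with a median of 0.53. The active-site subunits differed among themselves. The gene psmb5, which carries the chymotrypsin-like site, was at 25.9, 32.2 and 44.8 CPM in mutant livers, against 22.6, 22.8 and 25.7 CPM in WT livers. The lowest mutant library lay just above the highest WT one, and the log2 fold change was 0.53 ± 0.28 (edgeR, adjusted p = 0.340). The gene psmb7, of the trypsin-like site, was at 27.1, 19.8 and 32.9 CPM in mutant livers, against 17.6, 20.7 and 12.8 CPM in WT livers, with overlap at mutant replicate 2 (0.64 ± 0.30). The gene psmb6, of the caspase-like site, was at 32.4, 19.6 and 24.6 CPM in mutant livers, against 22.5, 25.0 and 24.6 CPM in WT livers, and showed the smallest difference of the ring (0.09 ± 0.26). Of the structural subunits, psmb4 was at 35.5, 28.3 and 43.1 CPM in mutant livers, against 21.8, 21.5 and 29.3 CPM in WT livers (0.56 ± 0.27). Only WT replicate 3 of psmb4 reached into the mutant range. The gene psmb3 had no overlap between the groups and a value of 0.53, and psmb1 and psmb2 had values of 0.56 and 0.21 with overlap. Which groups overlapped depended on the scaling. Under TMM, 2 of the 7 genes, psmb3 and psmb5, had every mutant library above every WT library, against 15.1% of all genes. Without TMM factors these overlapped, and 3 of the 7, psmb1, psmb4 and psmb7, were apart, against 11.6% of all genes.

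Among the beta genes of restricted expression, the immunoproteasome subunit psmb10, which replaces psmb7 in interferon-exposed mammalian cells, was at 2.94, 5.34 and 8.33 CPM in mutant livers, against 2.92, 1.15 and 11.3 CPM in WT livers. The levels of the groups overlapped fully (log2 fold change 0.12 ± 0.81). WT replicate 3 and mutant replicate 3 held the highest levels. The 10 myeloid markers, of which mpx and lyz were at 0 in some libraries, summed to 18.8, 15.2 and 72.1 CPM in mutant livers, against 19.6, 21.8 and 52.0 CPM in WT livers, so the same libraries were highest, and their part in the psmb10 level was not tested. The inducible genes left out by the rule also had their highest level of each group in replicate 3, as in psmb8a with 7.03, 12.03 and 36.9 CPM in mutant livers, against 2.01, 0.941 and 15.0 CPM in WT livers. All 4 had positive log2 fold changes, larger than that of psmb10 and with overlapping groups: 1.65 ± 1.13 for psmb8a, 1.58 ± 0.62 for psmb12, 0.94 ± 0.87 for psmb9a and 0.76 ± 1.14 for psmb13a, with adjusted p of 0.235 or more by edgeR. The thymus-type genes failed the filter: psmb11a had 0 counts in all 6 libraries, which allows a level of up to 0.0178 CPM over the libraries together by counting error, and psmb11b had 2 counts, both in mutant replicate 3.

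In the ATPase ring, 6 of 7 genes had positive log2 fold changes, with a median of 0.67. Under TMM, 6 had every mutant library above every WT library, against 15.1% of all genes. Without TMM factors this held for 3 of the 7, against 11.6% of all genes. The gene psmc3 was at 34.7, 38.8 and 53.2 CPM in mutant livers, against 21.7, 21.5 and 20.4 CPM in WT livers. Each mutant library exceeded the tight range of the WT libraries, and the log2 fold change was 0.995 ± 0.26 (edgeR, unadjusted p = 0.00587, adjusted p = 0.125). The gene psmc4 was at 43.2, 42.4 and 62.1 CPM in mutant livers, against 25.0, 26.3 and 30.1 CPM in WT livers (0.86 ± 0.27; edgeR, adjusted p = 0.165). The gene psmc5 was at 34.4, 29.3 and 45.3 CPM in mutant livers, against 22.3, 23.5 and 22.6 CPM in WT livers (0.67 ± 0.26; edgeR, adjusted p = 0.224). Both copies of psmc1 lay higher in every mutant library than in any WT library. The copy psmc1a was at 15.4, 19.3 and 28.8 CPM in mutant livers, against 10.9, 9.31 and 14.0 CPM in WT livers (0.90 ± 0.32). The copy psmc1b was at 9.60, 9.37 and 17.0 CPM in mutant livers, against 8.39, 7.74 and 8.75 CPM in WT livers (0.53 ± 0.31). The gene psmc6 had a value of 0.67 without overlap. The exception was psmc2, at 22.1, 23.2 and 31.8 CPM in mutant livers, against 18.8, 25.3 and 34.5 CPM in WT livers, with a log2 fold change of -0.03 ± 0.31. With total counts it turned to 1.11, beside a median of 0.97 over all genes.

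The base also holds large scaffold subunits and a ubiquitin receptor. Of the 4 non-ATPase members of the base, 3 had every mutant library above every WT library under TMM, against 15.1% of all genes. Without TMM factors this held for 1 of the 4, psmd4b, against 11.6% of all genes. The receptor gene psmd4 has copies a and b. Copy psmd4b was at 18.2, 17.8 and 31.0 CPM in mutant livers, against 10.3, 10.6 and 11.6 CPM in WT livers, and psmd4a at 3.36, 4.48 and 5.41 CPM in mutant livers, against 2.59, 2.14 and 3.09 CPM in WT livers. Neither pair of groups overlapped under TMM. The log2 fold change was 1.05 ± 0.30 for psmd4b (edgeR, adjusted p = 0.140) and 0.76 ± 0.33 for psmd4a (adjusted p = 0.261). The scaffold gene psmd2 had a value of 0.59 without overlap under TMM. The other scaffold gene, psmd1, was at 31.6, 23.8 and 41.0 CPM in mutant livers, against 33.0, 29.3 and 32.3 CPM in WT livers. The mutant values straddled the WT ones, with a log2 fold change of 0.03 ± 0.28. That of psmd1 was positive in only 7 of the 15 alternative fits, where it lay between -0.20 and 1.13.

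The lid held the member with the largest difference. All 9 lid genes had positive values, with a median of 0.78. Under TMM, 8 of them had every mutant library above every WT library, against 15.1% of all genes. Without TMM factors this held for 2 of the 9, against 11.6% of all genes. The gene psmd12, which encodes a scaffold subunit of the lid (Rpn5 in yeast), was at 24.2, 29.4 and 41.6 CPM in mutant livers, against 10.9, 8.05 and 8.02 CPM in WT livers. The lowest mutant library was above 2 times the highest WT library. Without TMM factors the groups were apart as well, with 15.3, 31.3 and 123 CPM in mutant livers, against 10.1, 6.08 and 5.76 CPM in WT livers. The log2 fold change was 1.82 ± 0.30, or 3.53-fold (edgeR, unadjusted p = 0.000428, adjusted p = 0.0683). Over the 15 alternative fits its log2 fold change stayed between 1.56 and 2.95 and its adjusted p between 4.2e-05 and 0.260. The call was made in 3 of these fits: DESeq2's Wald test, the fit without a filter, and total counts, where psmd12 was the only member called and 3.08% of all genes were called as higher. Among libraries whose oocyte markers summed to 227 CPM or more, psmd12 was at 24.2 CPM in mutant replicate 1, against 10.9 and 8.05 CPM in WT replicates 1 and 2. Among those with a sum of at most 3.37 CPM, it was at 29.4 and 41.6 CPM in mutant replicates 2 and 3, against 8.02 CPM in WT replicate 3. Both comparisons rest on a single library of a group, and the part of these markers was not tested by this division.

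The lid gene psmd8 was at 19.5, 31.9 and 38.8 CPM in mutant livers, against 15.4, 11.2 and 13.7 CPM in WT livers (log2 fold change 1.16 ± 0.32; edgeR, adjusted p = 0.135). The gene psmd14, which encodes the deubiquitinase that frees the substrate from its ubiquitin chain, was at 22.9, 23.7 and 30.2 CPM in mutant livers, against 13.2, 14.8 and 16.7 CPM in WT livers. Every mutant library lay above the WT range (0.78 ± 0.24; edgeR, adjusted p = 0.166). The copies psmd11a and psmd11b encode a lid subunit that also touches the core particle. Among lid genes they were the ones in which mutant replicate 2, not 3, was the highest mutant library. The copy psmd11a was at 24.0, 33.3 and 26.9 CPM in mutant livers, against 17.0, 15.4 and 14.0 CPM in WT livers (0.86 ± 0.24). For psmd11b the levels were 19.5, 31.6 and 26.0 CPM in mutant livers, against 18.1, 13.4 and 13.3 CPM in WT livers (0.78 ± 0.28). The smallest value of the lid was that of psmd3, at 26.2, 31.4 and 34.7 CPM in mutant livers, against 22.5, 23.2 and 27.4 CPM in WT livers (0.34 ± 0.24), the one lid gene whose groups overlapped. The genes psmd6, psmd7 and psmd13 had values of 0.35, 0.64 and 0.74.

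A comparison within libraries does not depend on how the libraries are scaled. The summed counts of the regulatory genes divided by those of the core genes gave 1.11, 1.42 and 1.28 in mutant replicates 1 to 3, against 1.17, 1.02 and 0.929 in WT replicates 1 to 3. The means were 1.27 ± 0.153 in mutant livers and 1.04 ± 0.122 in WT livers (SD, n = 3 each), and the groups overlapped, since mutant replicate 1 lay below WT replicate 1. Among the libraries whose oocyte markers summed to 227 CPM or more, the ratio was 1.11 in the mutant one, against 1.17 and 1.02 in WT replicates 1 and 2. Among those with a sum of at most 3.37 CPM, it was 1.42 and 1.28 in mutant replicates 2 and 3, against 0.929 in WT replicate 3. Both comparisons rest on a single library of a group, and mutant replicate 3 also stood apart in vitellogenin and erythrocyte markers. The part of the oocyte markers in the ratio was not tested. Under TMM, the mean log2 level of the regulatory genes lay 0.44, 0.60 and 1.05 above the WT mean in mutant replicates 1 to 3, while the WT libraries lay between -0.07 and 0.05. The corresponding core values were 0.28, 0.14 and 0.74 in mutant livers, against -0.20, -0.09 and 0.29 in WT livers. The WT libraries spread more widely for the core than for the regulatory genes, and for the core WT replicate 3 stood level with mutant replicate 1 and above mutant replicate 2.

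**Figure D3:**
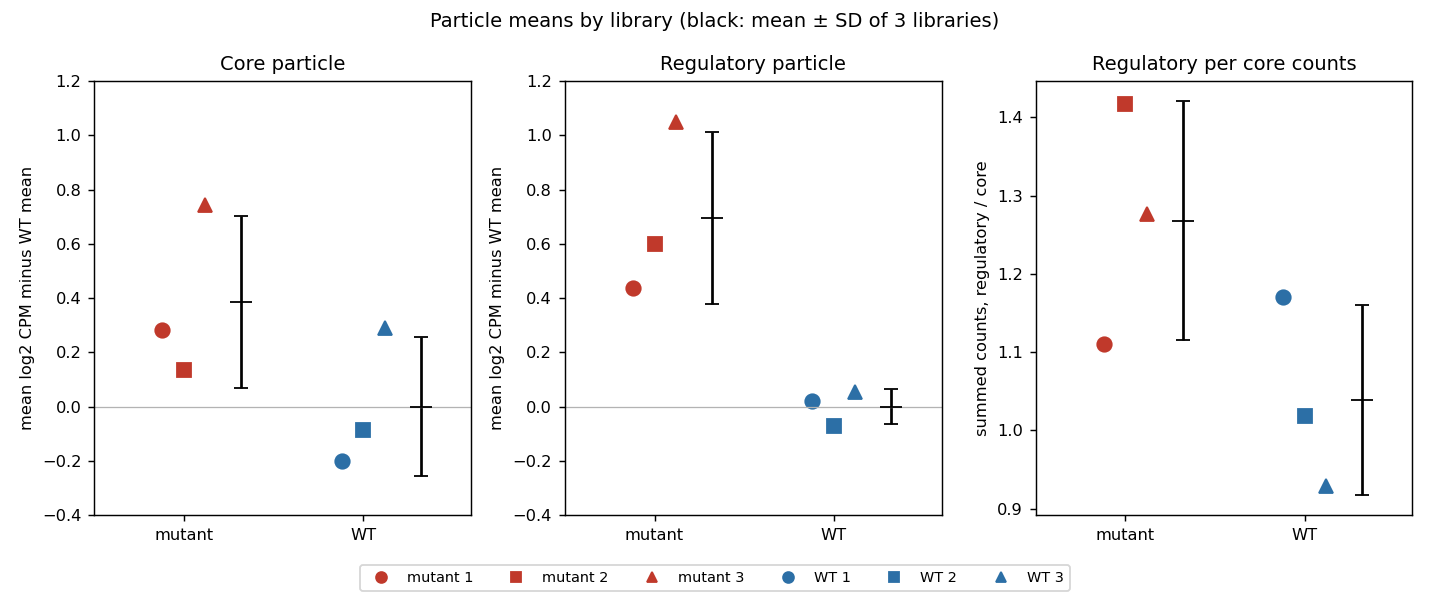
Left and middle, mean log2 CPM of the 17 core and 20 regulatory genes in each library minus the WT mean; right, summed counts of regulatory genes over those of core genes, on an axis that does not start at 0. Black bars are the mean ± SD of 3 libraries, mutant to the left of WT; the groups are apart only in the middle panel.

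The subunits differed among themselves in how far the mutant libraries stood from WT. Each subunit was set against the mean log2 count of the 37 tested subunits of the same library, and the WT mean was taken as 0. On this scale psmd12 stood at 1.08, 1.33 and 1.31 in mutant replicates 1 to 3, against 0.37, -0.06 and -0.31 in WT replicates. It kept a difference of 1.24 with all 6 libraries and 1.21 without mutant replicate 3. The subunits psmd4b, psmc3, psmc4 and psmd14 were likewise above the WT range in every mutant library, by 0.44, 0.41, 0.29 and 0.22 on average. Together, 5 regulatory members and 0 core members were above in every mutant library. Of all genes tested, 4.1% were above on the same scale. The centring on these subunits, whose mean stood higher in mutant libraries under TMM, lowers this share. It is therefore no background for the members.

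Other subunits were low relative to this mean, which itself stood higher in mutant libraries under TMM. Every mutant library was below every WT library for psma1, psmd1, psmc2, psma6b and psmb2, with mean differences of -0.65, -0.56, -0.56, -0.47 and -0.38. These were 3 core and 2 regulatory members, 5 of 37 in all. Of all genes, 29.6% were below on this scale, a share that the centring raises and that is no background either. The relative level of psmc2 was -0.57, -0.52 and -0.59 in mutant livers, against -0.35, 0.07 and 0.28 in WT livers, and that of psmd1 was -0.36, -0.79 and -0.53 in mutant livers, against 0.15, -0.03 and -0.13 in WT livers. Core members were more often on the lower side: 13 of 17 had a negative difference, against 6 of 20 regulatory members. Since the scale is centred on these genes, a positive value in one particle goes with a negative one elsewhere.

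**Figure D4:**
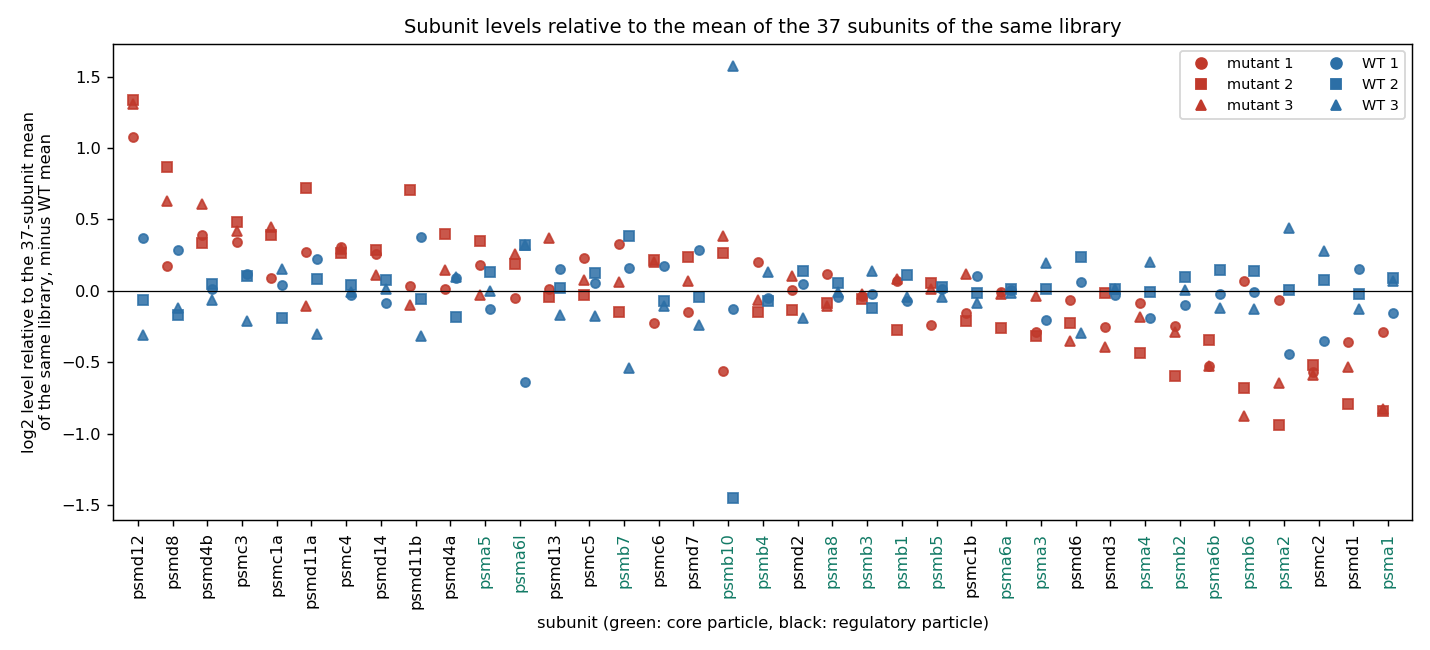
Log2 level of each of 37 subunits relative to the mean of these subunits in the same library, minus the WT mean, ordered by the mean difference, mutant minus WT. Red symbols are mutant and blue symbols WT libraries; the mutant symbols of psmd12 stand between 1.08 and 1.33, and those of psma1 between -0.29 and -0.84.

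Across the 6 libraries, log2 levels of pairs of core genes had a mean Pearson correlation of 0.61 over 136 pairs, pairs of regulatory genes 0.75 over 190 pairs, and pairs of 1 core and 1 regulatory gene 0.59 over 340 pairs. These values describe 6 libraries that share their scaling factors. By the same measure, the tested genes outside the set most like the mean core profile were bcat2, sirt3, calcrlb, abcg8 and mob1a, with r between 0.981 and 0.995 over 6 libraries. These r are the highest of a search over all tested genes outside the set, and no background was computed for them. The gene calcrlb had only 10 to 14 counts in each library except mutant replicate 3.

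Of the activators, which bind the core particle from outside, all 5 had overlapping groups, as did 9300 of the 12889 genes tested. The activator genes psme1 and psme2, whose mammalian counterparts form an interferon-inducible cap on the core, were highest in replicate 3 of each group. The gene psme1 was at 11.2, 18.9 and 36.8 CPM in mutant livers, against 6.76, 12.3 and 25.8 CPM in WT livers (log2 fold change 0.58 ± 0.59), and psme2 was at 11.7, 14.1 and 29.8 CPM in mutant livers, against 5.56, 10.0 and 24.1 CPM in WT livers (0.49 ± 0.59). Their values turned on single libraries: they were -0.0067 and -0.051 without mutant replicate 3, and 1.21 and 1.23 without WT replicate 3. The sums of the myeloid and of the lymphocyte markers were highest in the same libraries as psme1 and psme2, though the myeloid marker csf1ra was not. The part of these markers was not tested. The nuclear activator gene psme3 was at 27.6, 40.05 and 15.7 CPM in mutant livers, against 35.8, 37.4 and 34.7 CPM in WT livers, and mutant replicate 3 was the lowest library (-0.37 ± 0.36). Of the copies for the activator PA200, psme4a was at 0.489, 0.0821 and 0.783 CPM in mutant livers, against 2.44, 2.04 and 0.224 CPM in WT livers, where WT replicates 1 and 2 stood above the rest (-1.75 ± 0.98; edgeR, adjusted p = 0.370). Its copy psme4b was at 12.4, 19.8 and 20.3 CPM in mutant livers, against 17.2, 16.3 and 18.8 CPM in WT livers (0.01 ± 0.27).

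Among the assembly factors taken in by the rule, the positive differences without overlap under TMM were in those of the regulatory particle. In mammals psmd5, psmd9 and psmd10 are chaperones of the base of the regulatory particle. The gene psmd5 was at 4.53, 4.6 and 8.13 CPM in mutant livers, against 3.64, 2.25 and 2.92 CPM in WT livers (log2 fold change 0.97 ± 0.36; edgeR, adjusted p = 0.214). The gene psmd9 was at 6.24, 5.504 and 5.57 CPM in mutant livers, against 2.64, 3.97 and 3.31 CPM in WT livers (0.80 ± 0.28; edgeR, adjusted p = 0.199). Both had no overlap between the groups under TMM, whereas psmd10 was at 2.63, 5.59 and 5.48 CPM in mutant livers, against 5.27, 4.18 and 6.34 CPM in WT livers (-0.20 ± 0.37). Every mutant library was thus above every WT library for 2 of these 3 genes, against 15.1% of all genes. Without TMM factors this held for 1 of the 3, psmd9, against 11.6% of all genes. Of the 3 chaperone genes of the core particle taken in by the rule, psmg1 was at 10.3, 8.17 and 10.5 CPM in mutant livers, against 7.09, 6.90 and 12.01 CPM in WT livers (0.16 ± 0.31). The gene psmg2 was at 19.3, 14.7 and 10.6 CPM in mutant livers, against 12.03, 16.3 and 14.1 CPM in WT livers (0.07 ± 0.30). The gene psmg3 was at 8.87, 7.89 and 6.04 CPM in mutant livers, against 7.38, 9.05 and 8.42 CPM in WT livers (-0.13 ± 0.26). All 3 had overlapping groups, as did 9300 of the 12889 genes tested. Outside the rule stood pomp, another assembly factor of the core particle. Its level was 19.0, 21.2 and 28.3 CPM in mutant livers, against 14.7, 13.9 and 19.5 CPM in WT livers, with overlap (0.51 ± 0.27). The inhibitor gene psmf1 was at 3.67, 2.71 and 6.70 CPM in mutant livers, against 3.31, 2.67 and 8.75 CPM in WT livers (-0.16 ± 0.55). The non-subunits also overlapped: psme3ip1 was at 6.85, 8.17 and 5.98 CPM in mutant livers, against 6.28, 7.11 and 7.80 CPM in WT livers (-0.01 ± 0.26), and psmc3ip at 1.22, 0.904 and 1.99 CPM in mutant livers, against 1.01, 0.261 and 1.74 CPM in WT livers (0.47 ± 0.69). The small negative values of psmd10, psmg3, psmf1, psme3 and psme3ip1 were positive under total counts, with the shift of all genes given above.

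Genes that work with the proteasome were read from 5 further lists, in which edgeR called 0 members after adjustment, against 0.241% of all genes. In the list of proteasome-associated proteins, 12 genes were tested, of which 2 were higher and 3 lower by the unadjusted p, against 10.8% and 8.29% of all genes. The ubiquitin receptor gene adrm1, the remaining subunit of the base, was at 10.8, 17.99 and 16.2 CPM in mutant livers, against 8.67, 7.63 and 8.30 CPM in WT livers (log2 fold change 0.87 ± 0.28; edgeR, adjusted p = 0.171). The lid subunit gene sem1 and the deubiquitinase gene uchl5 also had no overlap, with values of 0.45 and 0.63. The zinc finger genes zfand5a and zfand5b, whose mammalian counterpart stimulates the proteasome, lay on the other side. The level of zfand5b was 10.8, 7.76 and 12.3 CPM in mutant livers, against 28.0, 79.9 and 163 CPM in WT livers (-3.14 ± 0.63; edgeR, adjusted p = 0.0822), and that of zfand5a was 5.57, 3.94 and 9.35 CPM in mutant livers, against 12.9, 29.4 and 115 CPM in WT livers (-3.05 ± 0.85). The WT libraries themselves differed several-fold in both genes. The nuclear import factor gene akirin2 was the third gene lower by the unadjusted p, at -0.79. Without TMM factors the groups overlapped for zfand5a, zfand5b, akirin2, adrm1 and sem1, but not for uchl5.

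Among ubiquitin genes, the polyubiquitin gene ubb was at 71.7, 25.8 and 111 CPM in mutant livers, against 194, 260 and 803 CPM in WT livers (log2 fold change -2.59 ± 0.75; edgeR, adjusted p = 0.147). The activating enzyme gene uba1 was at 131, 182 and 128 CPM in mutant livers, against 83.0, 84.5 and 76.1 CPM in WT livers (0.85 ± 0.30; edgeR, adjusted p = 0.196). These genes lay on opposite sides of WT, each without overlap under TMM. Without TMM factors the groups of uba1 stayed apart, while those of ubb overlapped, with 45.3, 27.5 and 328 CPM in mutant livers, against 179.5, 196 and 577 CPM in WT livers. The fusion gene rps27a, which encodes ubiquitin with a ribosomal protein, was at 2083, 927 and 401 CPM in mutant livers, against 2061, 2190 and 2241 CPM in WT livers (-0.93 ± 0.65). Of 6 shuttle factors, which bring tagged proteins to the proteasome, rad23ab had a value of -0.77 ± 0.27, ddi2 one of 0.66 ± 0.31, nub1 one of -1.01 ± 0.63 and rad23b one of -0.13 ± 0.24. In the list of the p97 segregase, which pulls tagged proteins out of membranes and complexes, 6 of 12 genes were above WT in every mutant library, against 15.1% of all genes. Without TMM factors this held for 1 of the 12, ubxn7, against 11.6% of all genes. Its ATPase gene vcp was at 142, 148 and 159 CPM in mutant livers, against 112, 125 and 118 CPM in WT livers (0.34 ± 0.28), and its cofactor genes ubxn7, nsfl1c and nploc4 had values of 1.32, 0.72 and 0.70.

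The NFE2L list holds the transcription factors known in mammals for proteasome genes, their small Maf partners and enzymes that process them. The factor gene nfe2l1b was at 5.505, 8.54 and 12.8 CPM in mutant livers, against 3.21, 1.88 and 2.19 CPM in WT livers, with the groups apart (log2 fold change 1.88 ± 0.40; edgeR, adjusted p = 0.0916). The other copy, nfe2l1a, was at 10.6, 7.11 and 3.26 CPM in mutant livers, against 6.76, 12.4 and 19.3 CPM in WT livers, with overlap (-0.88 ± 0.53). The gene ngly1, whose product removes sugar chains from NFE2L1 in human cells, was at 3.43, 5.42 and 7.59 CPM in mutant livers, against 2.06, 1.41 and 1.96 CPM in WT livers (1.599 ± 0.39; edgeR, adjusted p = 0.112). The partner gene mafk was at 0.122, 0 and 0.0854 CPM in mutant livers, against 1.49, 2.14 and 2.47 CPM in WT livers (-4.80 ± 0.79; edgeR, adjusted p = 0.0683). The protease gene hm13 had a value of -0.25 ± 0.36. Of the 9 tested members, 3 were higher and 2 lower by the unadjusted p (10.8% and 8.29% of all genes). Among them was nfe2l2b at 3.17 ± 0.85, with only 12, 1 and 2 counts in WT replicates 1 to 3. Another was maff at -1.81 ± 0.70, whose groups overlapped without TMM factors. The members nfe2l2a and nfe2l3 had overlapping groups, with values of 0.68 ± 0.45 and -0.35 ± 0.31.

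**Figure D5:**
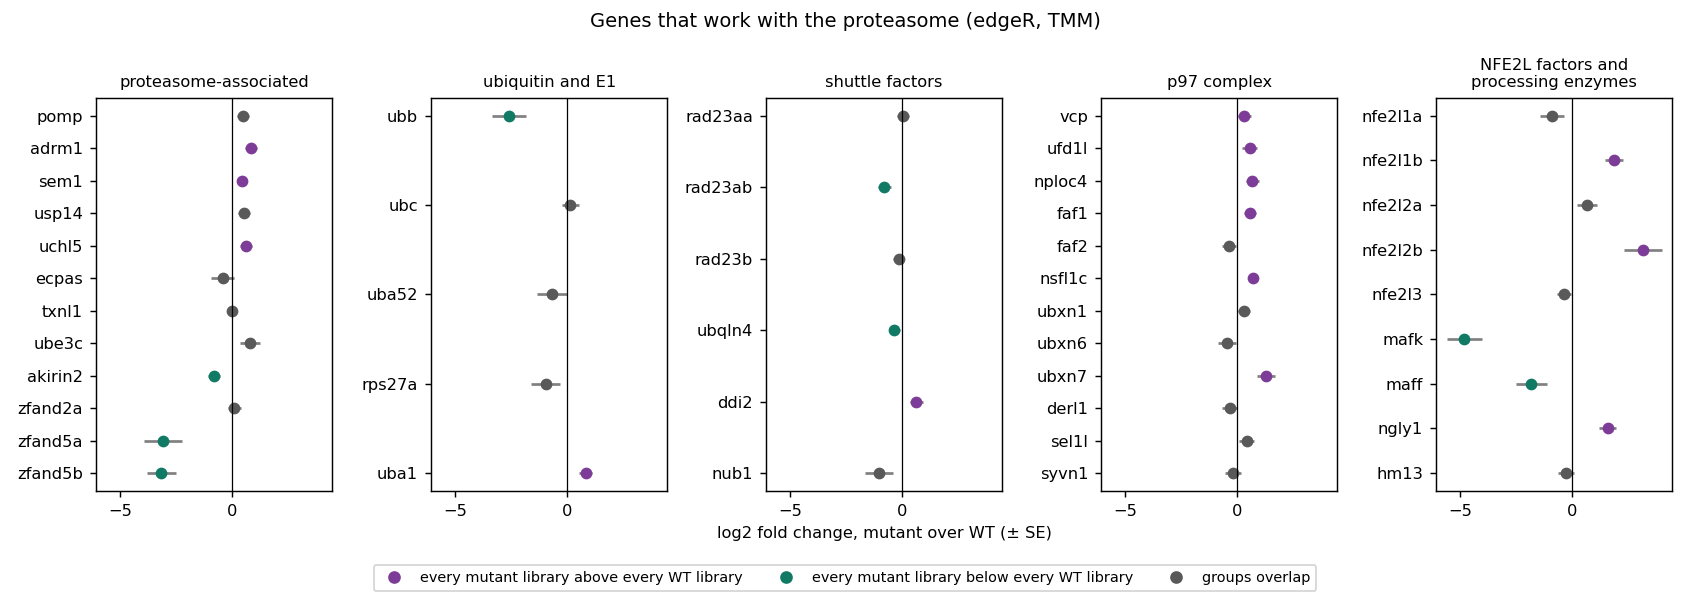
Log2 fold change, mutant over WT, with its standard error from edgeR for the tested genes of 5 lists that work with the proteasome. Purple points mark genes with every mutant library above every WT library, green points those with every mutant library below, and grey points those with overlap; mafk lies at -4.80, zfand5b at -3.14 and nfe2l1b at 1.88.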

How the data were processed

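For 6 liver libraries the authors deposited raw read counts per gene symbol, whole numbers that were not normalized. Trimmomatic 0.36, STAR 2.7, featureCounts 1.5.2 and the build GRCz11 are listed per the submitters' processing notes, with no roles stated. Neither the strand setting nor the handling of reads that align to several places is known from these sources. The 1 row without a gene name, 0.568% to 1.02% of a library's counts, was left out.

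Counts were tested in R 4.3.3 with edgeR 4.0.16: filterByExpr, TMM factors, robust quasi-likelihood test, Benjamini-Hochberg adjustment over 12889 genes, called at an adjusted p under 0.05. The standard error is the log2 fold change over the square root of F. Alternatives used DESeq2 1.42.0, limma 3.58.1 (voom), other scaling, filters and covariates, and each library left out; the test was tried on simulated counts. Comparisons within a library used log2(count + 0.5), and log2 CPM a prior count of 2.

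Levels carry no correction for gene length and are compared within a gene only. Values in each library are given for members with an unadjusted p under 0.05, the highest level, highest and lowest change of each role, and copies ending in a or b. Of the pathway lists, the 3 members of lowest p and the member of highest level are named. A few other members were named after their values were seen. The genes and lists were chosen with earlier results of these data known. The depth of 3 libraries per group limits the precision.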

Additional observations from a re-analysis of the deposited data

How the results depend on the processing

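The number of genes called across the table depended on the fit: 472 with total counts, 211 without a filter, 1085 by DESeq2, 50 with the oocyte marker covariate and 2 with a replicate block, beside 31 as reported. Members called, all as higher, numbered 1 with total counts, 1 without a filter and 4 by DESeq2, and 0 in the other alternatives. Of all genes, 3.08% were called as higher with total counts, 0.406% of 23138 without a filter and 4.07% by DESeq2. In each of the other alternatives, at most 0.179% of all genes were called as higher. With total counts the median log2 fold change was 1.62 for the core and 1.82 for the regulatory particle. Leaving out 1 library gave 2 to 77 called genes and a regulatory median of 0.52 to 0.86. The cause was not tested. The deviations of same-numbered libraries correlated with r = 0.30, -0.21 and 0.32, and other pairs of a mutant and a WT library lay between -0.49 and 0.41. Same-numbered pairs did not stand out from the others, so the replicate block rests on a number only.

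Of 764 results for single members, 702 kept direction and side of the threshold, 6 newly passed it and 56 turned sign. With total counts the values were psma1 0.94, psma2 1.04, psme3 0.30, psme3ip1 0.87, psmg3 0.69, psmf1 1.14, psmd10 0.92 and psmc2 1.11. The median over all genes in that fit was 0.97. The values of psme4b and psmd1 were -0.020 and -0.0046 with DESeq2 size factors, -0.014 and -5.5e-06 without a filter, -0.023 and -0.0062 with the replicate block, -0.018 and -0.0036 by DESeq2, -0.029 and -0.036 by limma-voom, and -0.21 and -0.0065 with the oocyte covariate. The oocyte covariate also gave psma6b -0.012 and psmb10 -0.28. A filter of 1 CPM gave psma2 0.0053, psme3ip1 0.0052 and psmc2 0.00065, and limma-voom gave psmf1 0.035.

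Leaving out 1 library moved psma1 between -0.21 and 0.060, psma2 between -0.26 and 0.32, psma6b between -0.073 and 0.20, psmb2 between -0.061 and 0.38, psmb6 between -0.14 and 0.24, psmb10 between -0.38 and 1.43, psmc2 between -0.23 and 0.20, and psmd1 between -0.20 and 0.20. Outside the particles the ranges were -0.37 to 0.050 for psmd10, -0.0067 to 1.21 for psme1, -0.051 to 1.23 for psme2, -0.13 to 0.18 for psme4b, -0.15 to 0.075 for psme3ip1, -0.18 to 0.25 for psmg2, -0.27 to 0.00055 for psmg3, -0.64 to 0.53 for psmf1 and -0.0032 to 1.1003 for psmc3ip. With 3 libraries per group, differences of this size are not separable from the spread between libraries.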
